A study of Mus musculus with 6 samples.

Results

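The ISG15 system is a set of genes for a ubiquitin-like protein tag and the enzymes that attach and remove it. It was examined here as 6 of the 36137 genes with transcripts in the deposited tables: *Isg15*, *Uba7*, *Ube2l6*, *Herc6*, *Usp18* and *Usp25*. The genes were listed by their known roles but selected on their gene-level counts in these same WT and Drp1 KO libraries, which were known when the list was drawn up, so the difference between genotypes is given for them as a description, without p-values. Where the text says which of them the fit over all genes called, this describes that fit and is no test of the 6 genes. The libraries came from bone marrow–derived macrophages (BMDMs) cultured for 7 days and then exposed for 8 hours to hypoxia and serum starvation (HSS), the study's culture model of ischemic muscle, at 2.1% oxygen according to the sample labels. There were 3 libraries from WT cells (LysM-Cre+/- *Drp1*+/+) and 3 from Drp1 KO cells (LysM-Cre+/- *Drp1* fl/fl). Both genotypes therefore carried Cre, which is driven by the lysozyme M promoter and acts in cells of the myeloid lineage. The study used mice of both sexes, 8 to 12 weeks old. Reads of *Usp9y*, a gene of the Y chromosome, were nearly all in WT library 2. By this gene, sex was uneven across the libraries, and its part in differences between the genotypes was not tested. Marrow of 2 mice was pooled per genotype, and the labels name the libraries biological replicates, but the methods do not say whether each had its own pool, so the spread between libraries may be partly technical. All libraries had been exposed to HSS, so the effect of HSS itself cannot be read from them.

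ISG15 is made of a pair of ubiquitin-like folds and is one of the proteins most strongly induced by type I interferon. Like ubiquitin, it is joined to lysines of target proteins by an E1, an E2 and an E3 enzyme acting in turn, a process called ISGylation. UBA7 is the E1 that activates ISG15, UBE2L6 is the E2 that carries it, and HERC6 is the main E3 ligase in mice. USP18 cleaves ISG15 from its targets and, separately from that activity, binds the interferon receptor chain IFNAR2 together with STAT2 and dampens signaling. USP25 is a ubiquitin protease related to the other enzymes of the USP family, acts on signaling proteins of the Toll-like receptor pathways and has been linked to ISG15 removal.

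*Isg15* and *Usp18* had a match to the interferon-stimulated response element (ISRE) close to their start site, as had 3.77% of 15921 tested protein-coding genes. A match is a description of the sequence, and the 6 genes, most of them known interferon targets, are no random draw from the genome. Windows ran from 250 bases before to 50 after the start of the canonical transcript in the GENCODE annotation of GRCm39, and the motif searched was GAAA, any 2 bases and again GAAA, on both strands, with overlapping matches included. The sequences are shown because they are the stretches in which the matches lie, from the genome of that build, 5′ to 3′ on the strand of the gene, with the matching bases in capitals.
*Isg15*, chr4:156285328-156285357, minus strand: gtagGAAAAGGAAACCGAAACAGAAAatag
*Usp18*, first match, chr6:121222772-121222801, plus strand: ggtgcctgagTTTCGCTTTCctttggatct
*Usp18*, second match, chr6:121222796-121222825, plus strand: ggatctagggGAAAACGAAAgcttggcggt
In *Isg15* 3 overlapping matches formed one run from base -50 to base -29, counted with the start as base 0. In *Usp18* the matches lay from -75 to -66, where the motif reads on the opposite strand, and from -51 to -42. *Uba7*, *Ube2l6*, *Herc6* and *Usp25* had 0 matches in this window, which says only that these letters are not in these 300 bases. The interferon-gamma type motif TTCNNNGAA was in 7.84% of the promoters and in those of 0 of the 6 genes.

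Depth ranged from 23389488 to 32231206 estimated reads per library. Transcript counts were summed by gene and rounded. A total of 10 counts or more was required, and the 18506 genes that met it were tested together with edgeR's quasi-likelihood test. Levels are CPM, counts scaled to a common library size, and errors are SD over 3 libraries. A positive log2 fold change means a higher level in Drp1 KO BMDMs, and each is given with its standard error (SE). A call is a Benjamini-Hochberg adjusted p under 0.05 over all genes tested. For several lists, the number of genes with an unadjusted p under 0.05 (edgeR) is given too. How many of all genes had such a p was not counted. It was at least 2345 of the 18506 tested, the number that met the study's criteria, which add a fold minimum. The list numbers are therefore descriptions, and no excess is read from them. The targeted gene, *Dnm1l*, had a level of 72.6 ± 2.61 CPM in WT BMDMs (SD, n = 3), against 61.9 ± 3.91 CPM in the Drp1 KO libraries (SD, n = 3). Its log2 fold change was -0.23 (SE 0.092, adjusted p = 0.248, edgeR). Gene-level counts cannot tell the floxed exons from the rest, so the deletion cannot be checked from them. The 8 macrophage markers summed to between 13817 and 14229 CPM in WT and between 12246 and 14703 CPM in Drp1 KO libraries. Single markers differed, with log2 fold changes from -0.52 to 1.34. Of the 8, 1 was called higher and 2 lower, where 2.29% of all genes were called higher and 1.06% lower. A fit that took libraries of the same number as pairs called *Csf1r*, *Fcgr1* and *Mertk* of the 8, and 12% of all genes.

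All 6 genes of the ISG15 system passed the filter on low counts, and in each the 3 Drp1 KO libraries lay above the 3 WT libraries. Groups did not overlap for 21.9% of all genes tested, and for 11.7% with Drp1 KO above WT. Of the 6, 5 were called higher in Drp1 KO BMDMs and 0 lower, where 2.29% of all genes were called higher and 1.06% lower. *Usp25* was not called. The median log2 fold change of the 6 was 1.20, and that of all genes tested was 0.0046. As the genes were chosen with this contrast known, nothing is read from these counts. In bulk RNA, a larger share of cells expressing a gene and more RNA per cell cannot be told apart.

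**Figure D1:**
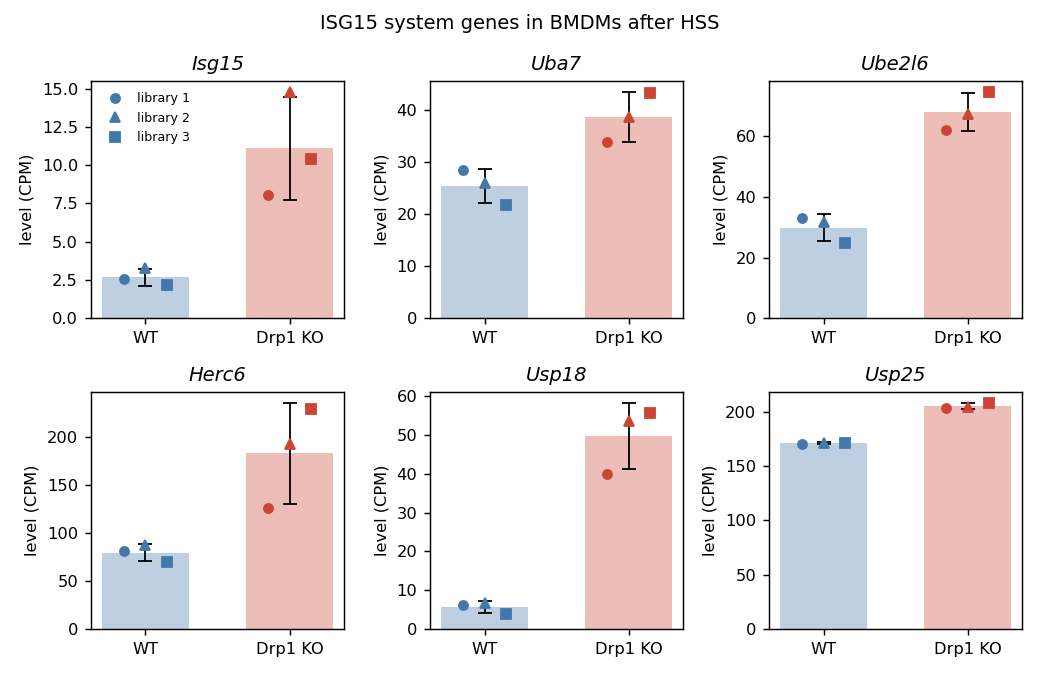
Levels of the 6 ISG15 system genes in CPM (y axes, linear, from 0) in WT and Drp1 KO BMDMs after 8 hours of HSS. Bars are means, error bars are SD over 3 libraries and symbols mark libraries 1 to 3 of each group. In every panel the 3 Drp1 KO libraries lie above the 3 WT libraries, and relative to the WT mean the difference is largest for *Usp18* (5.59 against 49.8 CPM) and smallest for *Usp25* (171 against 205 CPM).

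The modifier itself, *Isg15* (ENSMUSG00000035692), lies on chromosome 4 from 156283883 to 156285303 on the minus strand, and a single transcript with 2 exons represents it in the deposited tables. Its levels were 2.54, 3.30 and 2.18 CPM in WT libraries 1 to 3 and 8.08, 14.8 and 10.4 CPM in Drp1 KO libraries 1 to 3. Drp1 KO library 2 was the highest and WT library 3 the lowest, and the lowest Drp1 KO library stood well above the highest WT library. The means were 2.67 ± 0.570 and 11.1 ± 3.39 CPM (SD, n = 3 each), a 4.16-fold difference and a log2 fold change of 2.06 (SE 0.249). These levels rest on few reads, 59 to 88 estimated counts per WT library and 178 to 483 per Drp1 KO library. The processed pseudogene *Gm9706* on chromosome 17, which resembles *Isg15* in sequence, was listed at 0 counts in all 6 libraries.

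*Uba7* (ENSMUSG00000032596), the activating enzyme, lies on chromosome 9 from 107852704 to 107861262 and had the smallest difference among the conjugating enzymes. It was at 28.4, 25.9 and 21.8 CPM in WT libraries and 33.8, 38.7 and 43.3 CPM in Drp1 KO libraries. The groups were separated, but the gap between the highest WT and the lowest Drp1 KO library was narrow. The means were 25.4 ± 3.34 and 38.6 ± 4.77 CPM, a log2 fold change of 0.61 (SE 0.133). This was the call that depended most on single libraries, since *Uba7* was no longer called when library 2 or 3 of either genotype was left out.

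*Ube2l6* (ENSMUSG00000027078), the carrier enzyme, lies on chromosome 2 from 84628630 to 84640783. Its levels were 32.9, 31.8 and 24.9 CPM in WT libraries and 62.1, 67.3 and 74.5 CPM in Drp1 KO libraries, so that every Drp1 KO library was far above every WT library. The means were 29.9 ± 4.36 and 68.0 ± 6.24 CPM, a log2 fold change of 1.19 (SE 0.128).

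*Herc6* (ENSMUSG00000029798), the ligase, lies on chromosome 6 from 57557932 to 57642597. It was at 81.1, 87.4 and 70.0 CPM in WT libraries and 126, 193 and 230 CPM in Drp1 KO libraries. The WT libraries were close together, whereas Drp1 KO library 1 was well below the other two. The means were 79.5 ± 8.78 and 183 ± 52.3 CPM, a log2 fold change of 1.20 (SE 0.190). Without WT library 3 the log2 fold change was 1.11 and *Herc6* was not called.

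*Usp18* (ENSMUSG00000030107), the ISG15 protease and brake on interferon signaling, lies on chromosome 6 from 121222848 to 121247877. Its levels were 6.08, 6.78 and 3.92 CPM in WT libraries and 40.0, 53.6 and 55.6 CPM in Drp1 KO libraries. The means were 5.59 ± 1.49 and 49.8 ± 8.48 CPM, a 8.93-fold difference, and the log2 fold change of 3.16 (SE 0.207) was larger than that of any other gene of the system. *Usp25* (ENSMUSG00000022867), on chromosome 16 from 76810546 to 76913675, was in contrast nearly the same in all libraries of a genotype. It was at 171, 171 and 172 CPM in WT libraries and 203, 205 and 208 CPM in Drp1 KO libraries. Its log2 fold change was 0.26 (SE 0.083), a 1.20-fold difference. Libraries of the same number were taken as pairs in an alternative fit, a pairing read from these counts that no source states. They deviated together from their group means only in part. Deviations of WT library 2 correlated more with those of Drp1 KO library 3 (0.326) than of library 2 (0.204). In that fit *Usp25* was called as well, which brought the count to 6. That paired fit called 2212 of the 18506 genes tested, or 12%, and 6.73% as higher in Drp1 KO BMDMs.

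Drp1 KO library 1 was the lowest Drp1 KO library for all 6 genes. WT library 3 was the lowest WT library for 5 of them, and the highest for *Usp25*. Within each gene, the difference was smallest in the pair of libraries numbered 1 and largest in the pair numbered 3. For *Herc6* it was 0.64, 1.14 and 1.71 on the log2 scale in pairs 1, 2 and 3, and for *Usp18* it was 2.72, 2.98 and 3.83. For *Isg15* it was 1.67, 2.16 and 2.26. The size of each difference thus varied with the pair, from an SD of 0.01 over the 3 pairs for *Usp25* to 0.58 for *Usp18*. Neutrophil markers also differed between the genotypes in their summed level, from 92.5 to 101 CPM in WT and from 121 to 226 CPM in Drp1 KO libraries, with *Ly6g* at 0 counts. Of the 11 markers, 8 were tested, all 8 were higher in Drp1 KO BMDMs, 0 were called with edgeR and 5 had an unadjusted p under 0.05. In the paired fit, which called 6.73% of all genes higher, 5 of the 8 were called higher, *S100a8*, *S100a9*, *Ngp*, *Ltf* and *Mmp8*, which encode granule and calcium-binding proteins of neutrophils. Among the Drp1 KO libraries, their summed level was highest in library 3, in which the other 5 genes of the system were also highest, and lowest in library 2, in which *Isg15* was highest. Their part in these differences was not tested.

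**Figure D2:**
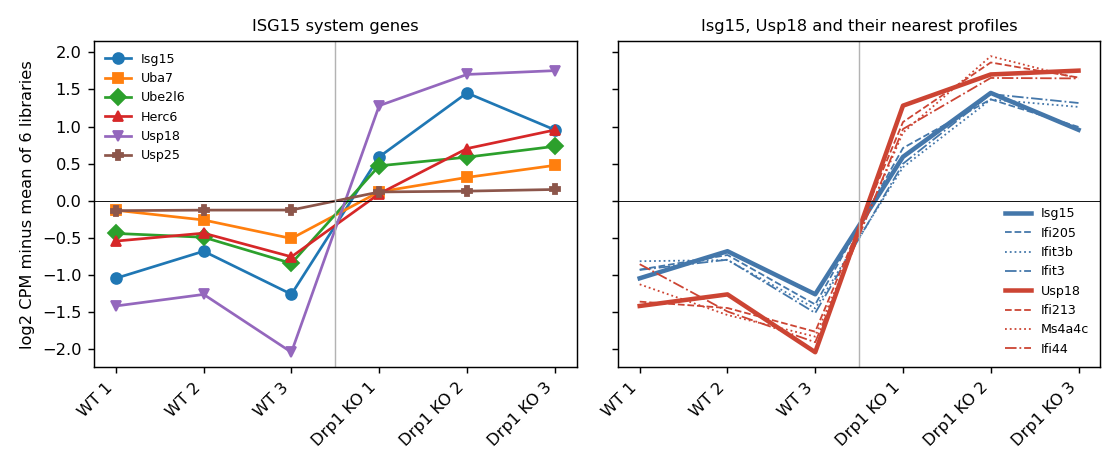
Log2 CPM of each gene minus its mean over the 6 libraries (y axis) in WT and Drp1 KO libraries 1 to 3 (x axis, the line between the genotypes in grey). Lines only join the values of a gene. The left panel holds the 6 ISG15 system genes, in which Drp1 KO library 1 is the lowest Drp1 KO library throughout. The right panel sets *Isg15* (blue) and *Usp18* (red) beside the 3 genes with the nearest profile to each.

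For a comparison of levels between genes, the deposited TPM of each gene's transcripts were added, since TPM takes transcript length into account. In WT BMDMs the order was *Herc6* (59.0 ± 9.13 TPM), *Usp25* (55.7 ± 2.76), *Ube2l6* (32.3 ± 5.15), *Uba7* (25.6 ± 2.54), *Isg15* (7.00 ± 1.31) and *Usp18* (4.86 ± 1.27; SD, n = 3 each). *Herc6* and *Usp25*, *Ube2l6* and *Uba7*, and *Isg15* and *Usp18* overlapped in their ranges over the libraries. Within each of the 3 WT libraries, *Ube2l6* was above *Uba7* and *Isg15* above *Usp18*, whereas *Herc6* was above *Usp25* in libraries 1 and 2 and below it in library 3. In Drp1 KO BMDMs the order was *Herc6* (106 ± 24.7 TPM), *Ube2l6* (90.0 ± 14.4), *Usp25* (63.9 ± 3.85), *Usp18* (41.2 ± 8.08), *Uba7* (28.5 ± 7.39) and *Isg15* (26.8 ± 8.64). *Herc6* and *Ube2l6* overlapped there, as did *Usp18*, *Uba7* and *Isg15*, whereas *Usp25* lay between both sets without overlap with either.

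Ratios between these genes differed between the genotypes accordingly. They follow from the levels on which the genes were chosen, so they describe RNA and are no separate finding. The ratio of *Usp18* to *Isg15* in TPM was 0.753, 0.718 and 0.595 in WT libraries and 1.72, 1.22 and 1.85 in Drp1 KO libraries. The RNA of the brake thus exceeded that of the modifier in every Drp1 KO library and in 0 of the 3 WT libraries. The ratio of *Uba7* to *Isg15* moved the other way, from 3.71 ± 0.571 to 1.10 ± 0.261, but with the protein-coding transcript of *Uba7* alone it was 0.319 ± 0.184 in WT and 0.116 ± 0.0399 in Drp1 KO libraries, below 1 in every library. That of *Herc6* to *Isg15* went from 8.48 ± 0.905 to 4.12 ± 1.10. The ratio of *Ube2l6* to *Isg15* was 4.70 ± 1.03 in WT and 3.55 ± 0.977 in Drp1 KO libraries and overlapped between them. With the protein-coding transcripts of *Ube2l6* alone, the latter ratio was 4.30 ± 0.544 and 2.19 ± 0.549, without overlap. The coding ratio of *Herc6* to *Isg15* was 3.15 ± 0.434 and 2.00 ± 0.597, with the closest libraries at 2.69 in WT and 2.68 in Drp1 KO. Against *Ube2l3*, its close relative that serves ubiquitin, *Ube2l6* went from a ratio of 0.325 ± 0.0388 to 0.842 ± 0.170, and with its coding transcripts alone from 0.300 ± 0.0143 to 0.520 ± 0.0866.

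The estimated counts divided into annotated transcripts differently in the 3 conjugating enzymes, while *Usp18* and *Usp25* were almost wholly on protein-coding transcripts, with at least 96.6% of the gene's counts in each library. In *Ube2l6*, the protein-coding class held 97.9 ± 3.09% of the counts in WT and 86.1 ± 2.04% in Drp1 KO libraries. The remainder in Drp1 KO libraries was almost all on a transcript of 525 bases annotated as retaining an intron. Its estimated counts were 43, 0 and 0 in WT libraries and 182, 262 and 391 in Drp1 KO libraries. Only 108 of its bases, from 84636573 to 84636680 of chromosome 2, are not in the exons of the main coding transcript, and they lie in an intron of it. With protein-coding transcripts alone, the log2 fold change of *Ube2l6* was 1.01 in place of 1.19.
In *Herc6* the mean coding share was higher in Drp1 KO libraries. Its protein-coding transcript held 72.0%, 70.2% and 75.7% of the counts in WT libraries and 75.5%, 82.7% and 81.3% in Drp1 KO libraries, so the groups overlapped narrowly. Its log2 fold change with protein-coding transcripts alone was 1.36. In *Uba7*, the protein-coding transcript held only 20.4 ± 8.97% in WT and 20.2 ± 6.80% in Drp1 KO libraries, and transcripts annotated with a retained intron held 53.5 ± 7.09% and 53.7 ± 6.09%. In TPM, the coding transcript of *Uba7* was at 3.48, 1.68 and 1.36 in WT and 2.99, 3.71 and 2.16 in Drp1 KO libraries, and the groups overlapped. The gene's total TPM overlapped too, with 20.5 TPM in Drp1 KO library 1 below all WT libraries. With length-scaled counts the log2 fold change of *Uba7* was 0.24, and with protein-coding transcripts alone 0.53, and it was called with neither.
On the coding class alone, the order of levels in WT BMDMs became *Usp25* (54.0 ± 2.64 TPM), *Ube2l6* (29.7 ± 1.88), *Herc6* (21.7 ± 0.980), *Isg15* (7.00 ± 1.31), *Usp18* (4.61 ± 1.04) and *Uba7* (2.17 ± 1.14), with an overlap between *Usp18* and *Uba7*. The E1 was thus the gene of the system with the least estimated coding RNA in both genotypes, at 2.95 ± 0.774 TPM in Drp1 KO BMDMs. The files give no error for the division of reads among transcripts. Antisense long noncoding genes are annotated over *Isg15*, *Ube2l6*, *Herc6* and *Usp18*. Antisense protein-coding genes overlap *Uba7* (*Inka1*) and *Ube2l6* (*Smtnl1*). The strand setting of the quantification is not given in the sources used here.

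**Figure D3:**
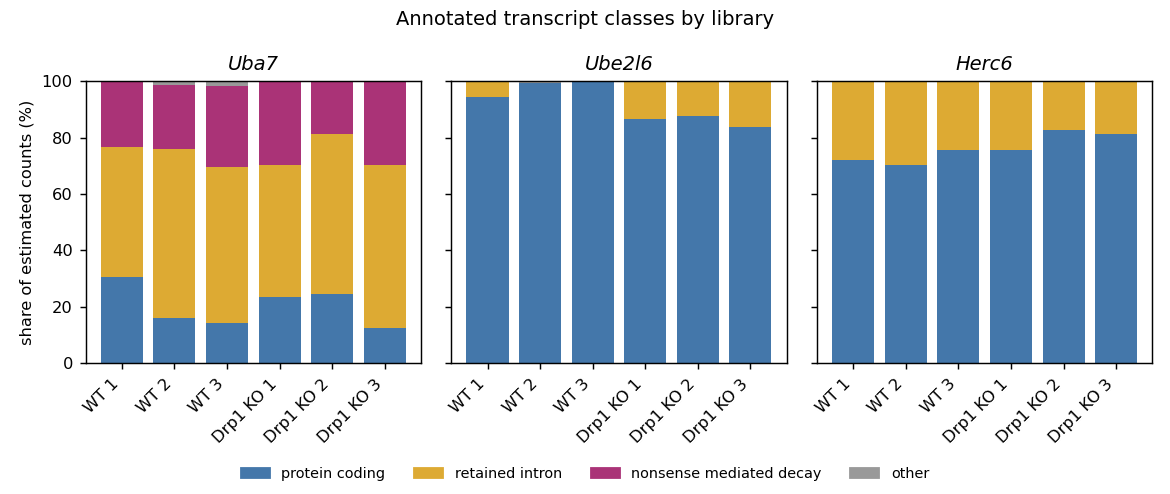
Share of each gene's estimated counts (y axis, percent) on annotated transcript classes in the 6 libraries (x axis), for *Uba7*, *Ube2l6* and *Herc6*. The retained intron class of *Ube2l6* is between 11.9% and 16.1% in Drp1 KO libraries and at most 5.68% in WT libraries, and *Uba7* has most of its counts outside the protein-coding class in every library.

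The genes whose profile was most like that of *Isg15* were *Ifi205*, *Ifit3b* and *Ifit3*, with a root mean square difference in centred log2 CPM of 0.10, 0.19 and 0.20 over the 6 libraries. Nearest to *Usp18* were *Ifi213* (0.18), *Ms4a4c* (0.26) and *Ifi44* (0.29). *Ifi205* and *Ifi213* belong to the interferon-inducible PYHIN family, *Ifit3b* and *Ifit3* to the antiviral IFIT family, and *Ifi44* is an interferon-induced gene as well. Within the system, *Ube2l6* and *Herc6* were nearest to each other (0.19) and *Usp18* and *Usp25* farthest apart (1.48). The measure reflects mostly the difference between genotypes, on which these genes were chosen, and all points share the same 6 libraries.

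To see whether relatives of these enzymes differed too, the E1, E2 and HERC families were read in the same fit. These genes were not among the 6 and were tested, but all lists were chosen with earlier results of these data known. Calls and p-values of the lists are to be read with that limit. Of 49 relatives tested, 9 E1 and adaptor genes, 36 E2 genes and 4 HERC genes, 0 were called (edgeR), against 3.36% of all genes, and 9 had an unadjusted p under 0.05. Their median log2 fold change was 0.06. DESeq2 called 3 of them and limma-voom called 1, where these tools called 6.24% and 3.37% of all genes. With libraries of the same number as pairs, 5 were called, all higher: *Uba3*, *Ube2a*, *Ube2w*, *Ube2d3* and *Ube2n*, in a fit that called 12% of all genes. The smallest p-value among the E1 group was that of *Uba3*, a subunit of the NEDD8-activating enzyme, with a log2 fold change of 0.42 (SE 0.118, adjusted p = 0.0960, edgeR). Among the E2 genes the 2 smallest were those of *Ube2a*, a partner of RAD18 in DNA damage tolerance, with 0.43 (SE 0.102, adjusted p = 0.0517), and of *Ube2w*, which modifies protein N termini, with 0.39 (SE 0.099, adjusted p = 0.0682). *Ube2a* averaged 32.2 ± 2.41 CPM in WT and 43.3 ± 2.38 in Drp1 KO libraries (SD, n = 3 each) and was called under 9 of 16 other settings. The HERC genes lay between -0.22 and 0.09, and *Herc2* and *Herc1* had adjusted p-values of 0.360 and 0.379 (edgeR).

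**Figure D4:**
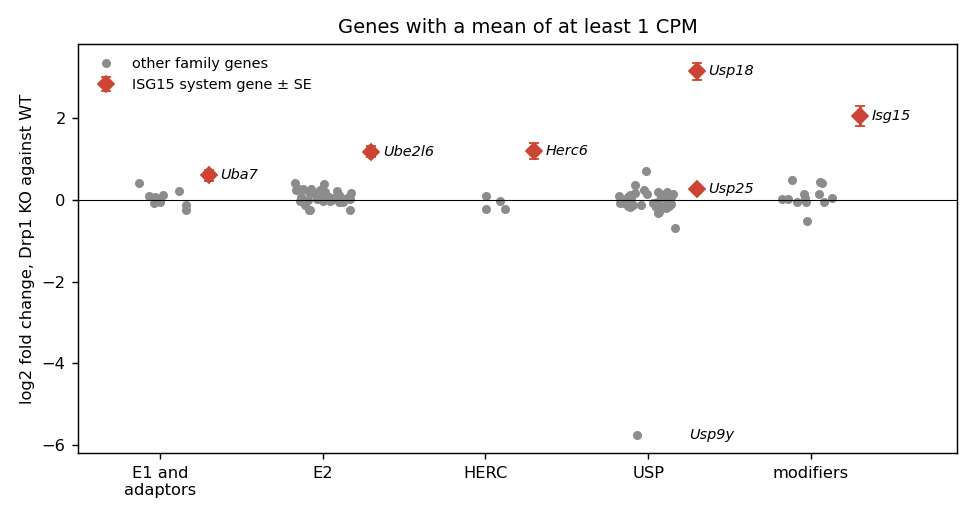
Log2 fold change of Drp1 KO against WT BMDMs (y axis) for the ISG15 system genes (red diamonds, error bars are SE) and for the other genes of the same families with a mean of at least 1 CPM (grey points, spread sideways for legibility). The red genes were selected on this contrast, so their distance from the grey ones is no finding. Most relatives lie within 0.5 of 0. The low point among the USP genes is *Usp9y*, with 164 counts in WT library 2 and at most 3 in any other library. This gene is on the Y chromosome, so its value follows the sex of the mice in each library.

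Of 46 other genes of the USP family tested, 1 was called (edgeR). *Usp35*, a ubiquitin protease, fell from 9.94 ± 1.02 to 6.12 ± 0.833 CPM with a log2 fold change of -0.69 (SE 0.158, adjusted p = 0.0431, edgeR), and it was not called with any one of the 6 libraries left out, with length-scaled counts or with protein-coding transcripts only. The median of the family was -0.01, and 4 had an unadjusted p under 0.05. With libraries as pairs, 4 were called, with *Usp31* higher and *Usp35*, *Usp48* and *Usp9y* lower, against 12% of all genes in that fit. The reads of *Usp9y* were nearly all in WT library 2, and as it is on the Y chromosome, its call follows the sex of the mice. *Usp28*, the closest relative of *Usp25*, was at 16.1 ± 2.37 and 17.5 ± 1.82 CPM.
Ubiquitin and the other ubiquitin-like modifiers were read in the same way. Of 14 such genes 0 were called (edgeR), 5 had an unadjusted p under 0.05, and the median log2 fold change was 0.03. Whether 5 of 14 is unusual cannot be told, as the share of all genes with such a p was not counted. DESeq2 called 3, limma-voom 1 and the fit with pairs 4, among them *Atg12* and *Ubb*, both higher, and *Fau*, lower. Over all genes these fits called 6.24%, 3.37% and 12%. *Atg12*, the modifier of autophagy, had a log2 fold change of 0.45 (SE 0.109, adjusted p = 0.0530, edgeR) and *Fau*, a fusion of a ubiquitin-like protein with a ribosomal protein, had -0.51 (SE 0.146, adjusted p = 0.0974, edgeR).

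A further list, also chosen with earlier results known, held genes whose products act with ISG15 or USP18, of which all 15 were tested. Of the 15, 2 rose and 0 fell (edgeR), where 2.29% of all genes rose and 1.06% fell, with a median log2 fold change of -0.05. *Stat2*, which encodes the interferon signaling factor that brings USP18 to the receptor, rose from a mean of 45.4 ± 2.75 to one of 114 ± 24.8 CPM (SD, n = 3 each). Its levels were 44.8, 48.4 and 43.0 CPM in WT and 86.0, 123 and 133 CPM in Drp1 KO libraries, a log2 fold change of 1.33 (SE 0.152, adjusted p = 0.00124, edgeR). *Trim25*, an E3 ligase of ubiquitin and ISG15 that also acts in RIG-I signaling, rose from 302 ± 22.2 to 449 ± 18.6 CPM with a log2 fold change of 0.57 (SE 0.096, adjusted p = 0.0104, edgeR). The call of *Trim25* was lost without WT library 2 and with length-scaled counts, and that of *Stat2* under none of the 16 other settings tried. The receptor chains gave -0.15 for *Ifnar1* (SE 0.094, adjusted p = 0.511, edgeR) and -0.19 for *Ifnar2* (SE 0.126, adjusted p = 0.533, edgeR). The proteases *Usp2*, *Usp5*, *Usp14*, *Usp16* and *Usp21*, which can react with ISG15 and are also counted in the USP family, gave log2 fold changes between -0.16 and 0.12. *Usp13*, a further one, had 4, 2 and 4 counts in WT and 1, 2 and 1 in Drp1 KO libraries (adjusted p = 0.464, edgeR). With libraries as pairs, *Vcp* and *Itgb2* were called in addition, both lower, in the fit that called 12% of all genes.

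The nearest tested protein-coding genes on each side of the 6 loci were read as well, to see whether the differences extended to the surroundings. Of these 12 neighbors 0 were called (edgeR), 3 had an unadjusted p under 0.05, and the median log2 fold change was 0.12. DESeq2 called 1, limma-voom 0 and the fit with pairs 2, *Pyurf* and *Slc6a13*, against 6.24%, 3.37% and 12% of all genes. *Agrn* and *Perm1*, 1868 and 15021 bases from *Isg15*, had log2 fold changes of 0.16 (SE 0.171, adjusted p = 0.736, edgeR) and 0.30 (SE 0.234, adjusted p = 0.616, edgeR). *Ppm1k* and *Pyurf*, beside *Herc6*, had 0.29 (SE 0.129, adjusted p = 0.297, edgeR) and -0.56 (SE 0.162, adjusted p = 0.103, edgeR). *Slc6a13*, 29308 bases from *Usp18*, had the highest log2 fold change of the 12 at 2.16 (SE 0.713, adjusted p = 0.149, edgeR). Its counts were 10, 1 and 2 in WT and 22, 27 and 17 in Drp1 KO libraries, without overlap. Without WT library 1 the log2 fold change was 3.75 and *Slc6a13* was called. *Tuba8*, on the other side of *Usp18*, was at 0.156 ± 0.101 and 0.0764 ± 0.0268 CPM, near the floor of 3 counts, which is 0.0917 to 0.136 CPM and covers counting error only. Around *Uba7*, *Traip* had -0.23 (SE 0.398) and *Gm20661*, which overlaps *Uba7*, had 2 to 4 counts per library. Around *Ube2l6*, *Timm10* had 0.22 (SE 0.161) and *Serping1* 0 to 4 counts per library. *Nrip1* and *Cxadr*, the distant neighbors of *Usp25*, had 0.06 (SE 0.105) and 0.22 (SE 0.366).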

How the data were processed

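The authors quantified paired-end reads of poly(A) RNA with kallisto 0.46.1 on Ensembl cDNA of GRCm39 and deposited estimated counts and TPM per transcript for each library. The estimated counts are not scaled between libraries. By identifier, 116159 of 116873 transcripts matched GENCODE genes of GRCm39, and the others took no more than 0.575% of the counts in any library. Counts were added per gene, rounded, and tested with edgeR 4.0.16 in R 4.3.3 (TMM, at least 10 counts in total, quasi-likelihood test, no covariate), after a run on simulated counts with known changes. DESeq2 1.42.0 and limma 3.58.1 were alternatives. Deposited TPM served for levels between genes and for length-scaled counts. The members and lists were chosen with earlier results of these data known, and the spelling of 1 partner gene, *Arih1*, was corrected later, which added it to the tested genes. Named are the 6 genes, all neighbors, per list the called genes (or the 2 with the smallest p), and the 3 nearest profiles of *Isg15* and *Usp18* over genes averaging 1 CPM or more; others were named after their values were seen, and some genes that the rule or a count would name are not reported here. The dendritic cell, lymphocyte and fibroblast lists had 0 called genes (edgeR), 2, 1 and 0 with an unadjusted p under 0.05, and at most 13.5 CPM summed per library; with pairs, 1 dendritic cell gene, *Cox6a2*, was called higher. For the pairing check, deviations from the group mean correlated at 0.510, 0.204 and 0.298 between libraries of the same number over 12248 genes, and between -0.443 and 0.326 otherwise, the highest for WT library 2 with Drp1 KO library 3. The pairing is thus read from the counts, as no source states it. No pair of libraries agreed within sampling noise.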

Additional observations from a re-analysis of the deposited data

How the results depend on the processing

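The 6 ISG15 system genes kept a higher fitted level in Drp1 KO BMDMs under each of the 15 other fits, and *Isg15*, *Ube2l6* and *Usp18* were called under each of them. With one library left out in turn, the count of the 6 that were called ran from 3 to 5, the lowest without WT library 3, and it was 6 with the replicate block (libraries of the same number as pairs), 5 under the study's criteria (a fold minimum with an unadjusted p) and 4 with length-scaled counts or protein-coding transcripts only. The count over all genes, 621, was 1155 with DESeq2, 1065 with no filter beyond 1 count, 2212 with the replicate block and 2345 under the study's criteria, and 181 to 904 with a library left out. Partner genes called numbered 1 with length-scaled counts and 4 with the replicate block, and 1 to 3 with a library left out. E1, E2 and HERC relatives called numbered 3 with DESeq2, 1 with limma-voom, 1 with library size only, 1 with filterByExpr, 2 with no filter beyond 1 count, 1 with protein-coding transcripts only, 5 with the replicate block, 3 under the study's criteria and 0 to 3 with a library left out. USP relatives called numbered 2 with no filter beyond 1 count, 0 with length-scaled counts, 4 with the replicate block, 3 under the study's criteria and 0 to 1 with a library left out. *Usp35* was not among them with protein-coding transcripts only, where the 1 called gene was *Usp8*, nor with a library left out, where it was *Usp31* (without WT library 1) or *Usp24* (without Drp1 KO library 3). Modifier genes called numbered 3 with DESeq2, 1 with limma-voom, 1 with library size only, 4 with no filter beyond 1 count, 1 with protein-coding transcripts only, 4 with the replicate block, 5 under the study's criteria and 0 to 3 with a library left out. Neighboring genes called numbered 1 with DESeq2, 1 with no filter beyond 1 count, 2 with the replicate block, 2 under the study's criteria and 0 to 1 with a library left out. Beside the calls given with the report's lists and 5 neutrophil and 1 dendritic cell marker, the replicate block changed no other call among the lists and *Dnm1l*. The cause of these shifts was not tested. Of the 90 other fits of the 6 log2 fold changes, 85 moved by less than the spread between libraries. Of the 6 genes, *Isg15* rests on the fewest reads, with 59 counts in WT library 1.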
